A study of Oryza sativa Japonica Group with 74 samples.

Results

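The 150 rice genes described here had their highest level 2 h after lights on (ZT2, where ZT is the hour after lights on) in wild-type plants under both long and short days. They were chosen by their measured wild-type values: the highest mean TPM (a transcript level scaled for transcript length and library size) at ZT2 in both day lengths, at least 10 TPM there, and the largest daily range. Of 37849 genes in the tables, 713 met the peak and level conditions, and the 150 with the largest score were kept. The score is the smaller, over LD and SD, of log2((highest + 1)/(lowest + 1)) of the mean TPM. The clock gene LHY, which the rule names as one to remove, did not meet the peak condition.

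RNA had been sequenced from whole plants of the cultivar Nipponbare, aged 21 days, grown in long days (LD, 14 h light and 10 h dark) or short days (SD, 10 h light and 14 h dark). Wild type (WT) was sampled at ZT24, ZT2, ZT6, ZT10, ZT14 and ZT18 in LD and SD. The mutants were phyB (OsphyB-/-) and the double mutant elf3-1 elf3-2 (Oself3-1 -/- Oself3-2 -/-), both sampled in each day length at ZT6, ZT14 and ZT18, and lux (OsLUX-/-), sampled at ZT14 in SD only. No mutant was sampled at ZT2, so the time of the peak itself was not measured in the mutants. The labels do not say that libraries of a group came from separate plants, and p-values then measure only the spread between these libraries. Root markers, given below with lux, were near 0 TPM in most libraries. How much root or meristem the samples held was not tested. In samples of mixed cell types, fewer cells of a type and less RNA per cell cannot be told apart.

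Many plant genes for photosynthesis, starch and sugar metabolism have a morning maximum set by light and by the circadian clock. ELF3 and LUX belong to the Evening Complex, a clock repressor that acts mainly from dusk into the night, and PHYB is a red-light photoreceptor whose signal reaches that complex. Of the 150 genes, 5 could be named by symbol, and the other 145 are given by their identifiers alone, with no role assigned. The named ones were RCA (Os11g0707000, Rubisco activase, which keeps the carbon-fixing enzyme active), ALDP (Os11g0171300, plastid fructose-bisphosphate aldolase of the Calvin cycle), SSI (Os06g0160700, a soluble starch synthase), RINO1 (Os03g0192700, inositol-3-phosphate synthase) and PIP2-2 (Os02g0629200, a plasma membrane aquaporin, a water channel). RCA was on a marker list, and the other 4 were paired with their identifiers from general knowledge after the list of members was known. Each of the 5 symbols stands in the RefSeq gene table on the chromosome that the identifier gives.

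The 74 libraries held 25660600 to 74126768 counts each (median 34754788), in 25 groups. Among them, 17 were doubted and left out, which leaves 57 libraries, 2 in 18 groups and 3 in 7 groups. The WT libraries left out are those that the rule leaves out, and replicate 1 of both mutants at ZT6 and ZT14 was left out for its position. On a scale set by marker genes at ZT18 (0 for the other genotypes, 1 for phyB), the 4 WT replicates 1 at ZT6 and ZT14 lay at 0.915 to 0.992, and the 4 phyB replicates 1 lay at -0.000517 to 0. On the same kind of scale for elf3-1 elf3-2, those 4 phyB libraries lay at 0.974 to 1.18. The 3 replicates 1 of elf3-1 elf3-2 lay at 0.258 to 0.479, while replicates 2 and 3 of elf3-1 elf3-2 lay at 1 to 1.23. Replicates 2 and 3 of WT at ZT6 and ZT14 lay at -0.00277 to 0.512. The replicates 1 of elf3-1 elf3-2 were thus within this pooled WT range, and they lay at 0 on the phyB scale. WT replicate 1 at ZT10 and replicate 3 at ZT2 and ZT24 made up the rest, and 5 of these 6 were closer to another WT group than to their own. This distance was not the reason for leaving them out: 10 WT libraries were closer to another group, and 3 of these were kept (replicate 2 at ZT24 and replicates 2 and 3 at ZT10, all in LD). The distance to the own group is a mean over its other libraries, the doubted one included, which can raise it for kept libraries. Counts with all 74 libraries under their labels stand beside each result. Over all times and day lengths together, the ranges of the mutated genes overlapped between each mutant and the other genotypes. ELF3-1 was at 29.8 to 67.4 TPM in elf3-1 elf3-2 and at 47.2 to 146 TPM elsewhere. PHYB was at 20.6 to 49.9 TPM in phyB against 16.6 to 89.2 TPM, and LUX at 46.7 to 55.7 TPM in lux against 0 to 239.8 TPM. Levels at the same time and day length were not compared, so these pooled ranges cannot check the genotype labels. The transcript of ELF3-2 was not analysed here.

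In WT the 150 genes were highest soon after dawn and lower through the rest of the light period. The rule used these values, so they are a description with no test. In LD the median of the 150 mean levels was 56.4 TPM at ZT24, 168 TPM at ZT2, 75.5 TPM at ZT6, 22.9 TPM at ZT10, 15.4 TPM at ZT14 and 13.2 TPM at ZT18. In SD the same medians were 70.9, 133, 58.6, 11.1, 7.48 and 15.5 TPM. The genes were therefore lowest late in the day or in the night, but the low point differed between genes: in LD 71 were lowest at ZT14, 55 at ZT18 and 22 at ZT10, and in SD 85 were lowest at ZT14, 52 at ZT10 and 10 at ZT18. Together they took 6.76% of all TPM at ZT2 in LD and 6.16% in SD, against 0.717% and 0.845% at ZT14. RCA and ALDP made up a large part of that sum, and without them the share at ZT2 was 4.56% in LD and 3.90% in SD. The peak was broad for many genes, since ZT2 exceeded the second-highest time by a median of 1.49 times in LD and 1.44 times in SD. That second time was ZT24 for 69 genes and ZT6 for 79 in LD, and ZT24 for 74 and ZT6 for 71 in SD.

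**Figure D1:**
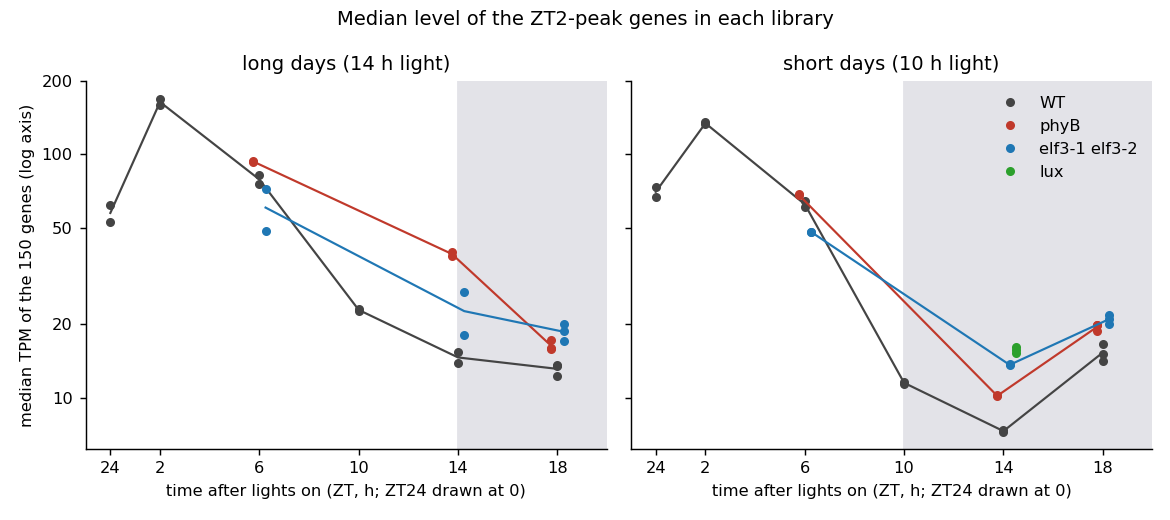
Median TPM of the 150 genes in each kept library (points, log axis) by time after lights on, in LD and SD, with lines through group means and the dark period shaded. WT points are highest at ZT2, and the phyB points at ZT14 in LD (38.2 and 39.7 TPM) lie above those of the other genotypes at that time.

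Replicate 3 at ZT2 had no part in choosing the genes and is one of the doubted libraries. In LD its median over the 150 genes was 161 TPM, and 144 genes were above the mean of every other WT time. In SD its median was 158 TPM, and 132 genes were above every other time.

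Levels at ZT2 covered a wide range, from 13.6 to 13110 TPM in the mean of LD and SD. RCA was the most abundant, with 13442 and 12691 TPM in the 2 LD libraries at ZT2 and 13916 and 12392 TPM in SD. It was lowest at ZT14 in LD (962 and 971 TPM) and at ZT10 in SD (624 and 766 TPM). ALDP followed with 9181 and 8778 TPM in LD and 10088 and 8807 TPM in SD at ZT2. Both Calvin-cycle genes were also high at ZT24, RCA with 11544 and 11040 TPM and ALDP with 7334 and 7004 TPM in LD. The next genes by level were Os08g0139700, Os12g0189300 and Os12g0190000, which reached 3933 and 3828, 2213 and 2209, and 2190 and 2193 TPM at ZT2 in LD.

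The genes with the largest scores had low levels at ZT18, and the score itself favours a low minimum. Not all were low at the end of the night: at ZT24 Os03g0228200 had means of 158 TPM in LD and 275 TPM in SD. Os03g0782200 had the highest score, 8.62, with 421 and 439.6 TPM at ZT2 in LD, 878 and 889 TPM in SD, and 0 to 0.914 TPM in the 6 WT libraries at ZT18. Os03g0228200 (score 8.44) went from 611 and 563 TPM at ZT2 in LD to 0.182, 0.337 and 0.461 TPM at ZT18. Os03g0387900 (8.04), Os01g0281100 (7.33) and Os01g0498200 (7.18) followed. The last 3 were also low at the end of the LD night: Os01g0281100 had 2.17 and 2.29 TPM at ZT24 in LD, against 172 and 167 TPM at ZT2. In SD their means at ZT24 were higher, at 239, 23.8 and 77.4 TPM in the order named, against 21.4, 2.23 and 9.61 TPM in LD. Os07g0178700 (6.99) had the sharpest peak, 20.7 times its second-highest time in LD and 35.99 times in SD. At the other end of the score, Os01g0678900, Os03g0744700 and Os11g0267000 stood just inside the limit at 2.48, 2.48 and 2.47, and Os03g0729600, Os07g0561500 and Os01g0296200 just outside it at 2.46, 2.45 and 2.44. Among the members named by symbol, RINO1 had a score of 5.35, RCA 3.76, ALDP 2.95, PIP2-2 2.58 and SSI 2.54.

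**Figure D2:**
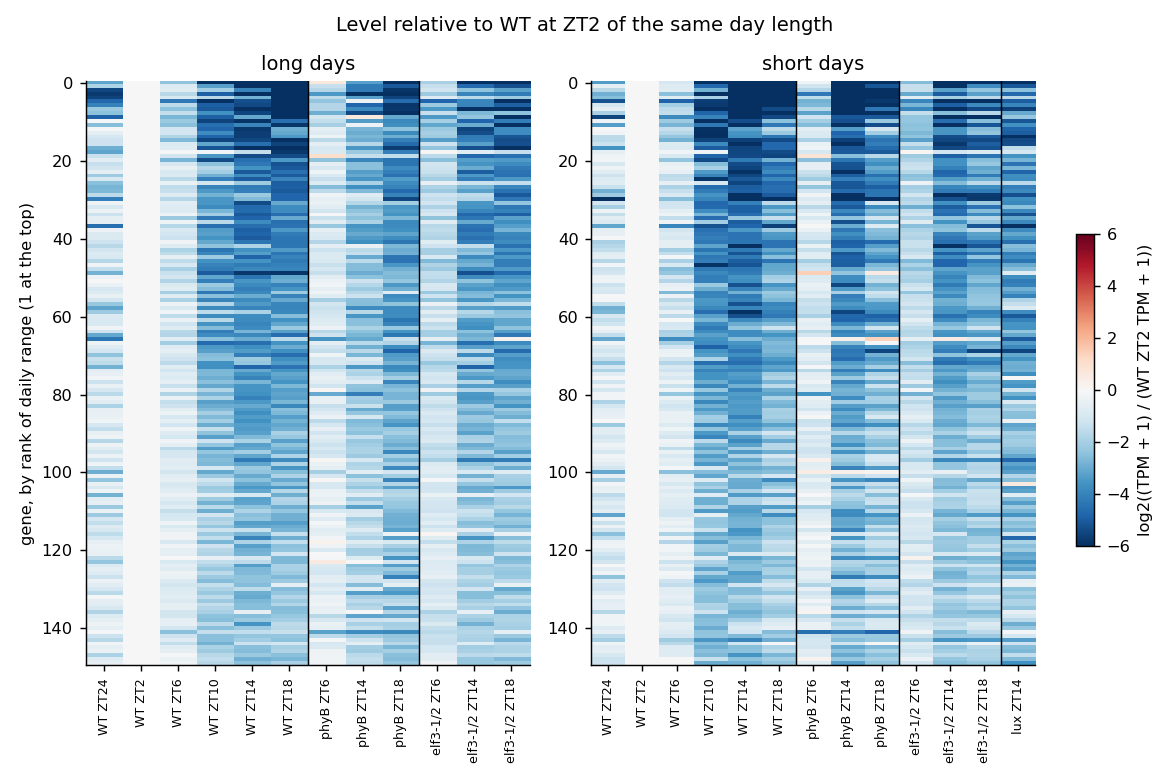
Mean level of each gene (rows, in order of score) as log2 of TPM + 1 relative to WT at ZT2 of the same day length, for every group in LD and SD, with colours limited at 6 in either direction. Blue is lower than WT at ZT2. The ZT18 columns of both mutants hold lower values than their ZT6 columns for most genes. The counts given below for these times (143 and 144 genes) are test calls averaged over the day lengths and were not counted from this figure.

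The height of the peak differed between day lengths for some genes. In mean TPM at ZT2, 105 of the 150 were higher in LD and 45 in SD, which is 70% higher in LD, against 60.2% of the 11515 genes with at least 10 TPM at ZT2 in both. SSI, which makes the glucan chains of starch, had 232 and 219 TPM in LD against 74.001 and 59.6 TPM in SD, and the 4 libraries did not overlap. RINO1 had 1019 and 956 TPM in LD against 565 and 551 TPM in SD. Os05g0102000 showed the widest gap in that direction, with 161 and 139 TPM in LD against 28.8 and 24.7 TPM in SD. Os09g0294000 lay widest in the opposite direction, with 116 and 115 TPM in LD against 385 and 389.9 TPM in SD. RCA and PIP2-2 overlapped between day lengths. In the fit across all genes, 39 members were higher in LD at ZT2 and 14 lower, where 14.4% and 15.5% of all 28905 tested genes were called higher and lower. The count was 31 in all without replicate 2 of WT at ZT2 in SD, and with all 74 libraries edgeR called 0 members (0 higher and 1 lower at an unadjusted p under 0.05). The ZT2 libraries chose the genes, so nothing is read from these counts.

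Both mutants kept a higher level at ZT6 than at ZT18, averaged over the day lengths. Between these times 143 genes fell and 1 rose toward ZT18 in elf3-1 elf3-2, and 144 fell and 1 rose in phyB. Over all tested genes, 21% were higher and 21.9% lower at ZT6 in elf3-1 elf3-2, and 23.5% and 28.2% in phyB. The median log2 difference of ZT6 over ZT18 for the 150 genes was 1.65 in elf3-1 elf3-2 and 2.35 in phyB, against -0.02 and -0.07 over all tested genes. All 74 libraries gave 121 and 1 called genes in elf3-1 elf3-2, and 136 and 0 in phyB. Mutant libraries had no part in choosing the genes. Os03g0782200 changed most in both: it had 71.2 and 151 TPM (LD) and 124 and 166 TPM (SD) at ZT6 in elf3-1 elf3-2, and 0 to 0.553 TPM in the 6 libraries at ZT18. The exceptions were few. Os08g0446800 was higher at ZT18 in elf3-1 elf3-2 (log2 of ZT6 over ZT18 -0.70, SE 0.16, edgeR adjusted p = 0.000308). Os12g0458100 was higher at ZT18 in phyB (log2 -1.49, SE 0.32, edgeR adjusted p = 0.000166).

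At ZT6 the genes were lower in elf3-1 elf3-2 than in phyB. The median level over the 150 genes was 93.0 and 93.9 TPM in the phyB libraries in LD, 75.7 and 82.0 TPM in WT, and 48.5 and 72.3 TPM in elf3-1 elf3-2. In SD it was 68.2 and 68.4 TPM in phyB, 60.7 and 64.0 TPM in WT and 48.0 and 48.0 TPM in elf3-1 elf3-2. No kept library of elf3-1 elf3-2 reached the level of any kept phyB library of the same day length. The doubted replicates 1 did not keep this order in SD, with 79.1 TPM in elf3-1 elf3-2 and 50.5 TPM in phyB. In LD they were at 10.9 TPM in elf3-1 elf3-2 and 60.2 TPM in phyB. In the test of elf3-1 elf3-2 over phyB, 104 genes were lower and 9 higher, where 17.5% of all tested genes were lower and 18.7% higher. The median log2 difference was -0.61, against 0.00 over all tested genes. Leaving out 1 library at a time gave 103 to 121 called genes in all, and all 74 libraries gave 5 lower and 0 higher with a median of -0.51. Replicate 1 of both mutants at ZT6, the libraries whose positions went against their labels, enter that last count.

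Calvin-cycle genes were among those that were lower. RCA had 11171 and 8981 TPM in phyB in LD and 4764 and 5918 TPM in elf3-1 elf3-2, and in SD 9850.3 and 8633 against 3999 and 5061 TPM. The groups did not overlap, with a log2 difference of -1.14 (SE 0.12, edgeR adjusted p = 2.4e-10). ALDP differed by -0.97 (SE 0.11, adjusted p = 2.53e-09). For SSI the phyB libraries had 181 and 162 TPM in LD and 79.5 and 69.5 TPM in SD, against 33.1 and 85.4 TPM and 24.04 and 33.5 TPM in elf3-1 elf3-2, a log2 difference of -1.61 (SE 0.16, adjusted p = 2.76e-10). RINO1 and PIP2-2 did not pass, with log2 differences of 0.12 (SE 0.13) and 0.09 (SE 0.12). The groups of RINO1 and PIP2-2 overlapped.

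The largest falls at ZT6 among non-overlapping genes were Os10g0533500, Os07g0463600, Os03g0782200, Os03g0757200 and Os01g0175700. Os10g0533500 had 75.9 and 96.7 TPM in LD and 82.7 and 83.6 TPM in SD in phyB, against 6.06 and 19.3 TPM and 3.09 and 16.6 TPM in elf3-1 elf3-2 (log2 -3.04, SE 0.24, adjusted p = 9.47e-13). Its WT levels, 21.9 and 15.2 TPM in LD and 25.8 and 22.03 TPM in SD, lay below phyB in every library. The few genes that were higher in elf3-1 elf3-2 included Os10g0560400, with 55.8 and 52.3 TPM in LD and 54.8 and 45.7 TPM in SD, against 19.997 and 16.1 TPM and 14.1 and 13.9 TPM in phyB (log2 1.54, SE 0.23, adjusted p = 1.43e-06). For this gene WT (59.4 and 43.4 TPM in LD) was close to elf3-1 elf3-2 and above phyB.

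The same time against WT is given as a description, because WT libraries chose the genes. elf3-1 elf3-2 over WT at ZT6 had 98 members lower and 6 higher, where 11% of all tested genes were lower and 10.7% higher. phyB over WT had 51 higher and 28 lower, where the shares were 14.4% and 16.2%. These comparisons share the WT libraries. With all 74 libraries edgeR called 0 members in both. At an unadjusted p under 0.05 there were then 72 lower and 0 higher in elf3-1 elf3-2, and 0 in either direction in phyB.

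At ZT18, in the dark in both day lengths, elf3-1 elf3-2 and phyB differed at many of the genes but in no common direction. In LD 50 genes were higher in elf3-1 elf3-2 than in phyB and 41 lower, where 17.5% and 17.7% of all tested genes were called. In SD 45 were higher and 47 lower, where the shares were 16.5% and 15.1%. The median log2 differences were 0.10 in LD and 0.01 in SD. Of the 50 genes higher in LD and the 45 higher in SD, 39 were the same genes, and 33 were shared by the 41 and 47 lower ones. How many of all tested genes were called in both day lengths was not counted, so nothing is read from this overlap. The LD and SD comparisons use separate libraries. All 74 libraries gave counts of 16 higher and 5 lower in LD, and 17 and 5 in SD.

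Of the 50 genes with the largest score, 13 were higher and 21 lower in elf3-1 elf3-2 in LD (median log2 -0.39). In SD 17 were higher and 21 lower. The 50 with the smallest score had 20 higher and 7 lower in LD (median log2 0.14), and 15 and 11 in SD. Over all tested genes, 17.5% were higher and 17.7% lower in LD, and 16.5% and 15.1% in SD. Os03g0782200, the first by score, had lower means in elf3-1 elf3-2 than in phyB in both day lengths, but at low levels. They were 0.0477 against 1.15 TPM in LD and 0.367 against 4.49 TPM in SD. Other genes with a large score had high night levels in elf3-1 elf3-2. Os01g0498200 had 155, 121 and 52.9 TPM in elf3-1 elf3-2 at ZT18 in LD, 8.33, 9.25 and 10.5 TPM in phyB and 2.46, 2.09 and 2.61 TPM in WT. In SD it had 76.6, 240.3 and 141 TPM, against 2.74, 3.38 and 3.53 TPM in phyB and 0.798 to 1.43 TPM in WT. No libraries overlapped between the mutants, and elf3-1 elf3-2 exceeded phyB by a log2 difference of 3.57 in LD (SE 0.28, edgeR adjusted p = 1.4e-12) and 5.61 in SD (SE 0.33, adjusted p = 5.47e-16). Os03g0387900 had 154, 113 and 45.8 TPM in elf3-1 elf3-2 in LD against 16.2, 17.9 and 14.7 TPM in phyB (log2 2.70, SE 0.28, adjusted p = 1.71e-09). Os10g0560400 had 40.6, 24.96 and 11.1 TPM in elf3-1 elf3-2 in LD and 25.5, 65.2 and 39.2 TPM in SD, while all 12 libraries of phyB and WT at ZT18 lay between 0.321 and 1.59 TPM. Os01g0281100 behaved likewise, with 3.32 to 12.7 TPM in LD and 10.1 to 28.4 TPM in SD in elf3-1 elf3-2 and 0 to 0.811 TPM in phyB and WT. In these 4 genes replicate 3 was the lowest in LD and replicate 2 the highest in SD among the elf3-1 elf3-2 libraries.

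Other genes were high in phyB at night. Os10g0533500 had 13.5, 17.02 and 11.3 TPM in phyB in LD and 14.6, 13.3 and 14.2 TPM in SD. In elf3-1 elf3-2 it had 0.723 to 1.06 TPM in LD and 0.563 to 1.59 TPM in SD, and in WT it was at 0 in 5 of 6 libraries and at 0.128 TPM in the last. The log2 difference between the mutants was -3.97 in LD (SE 0.48, adjusted p = 2.08e-08). Os07g0463600 had 8.03, 9.38 and 9.07 TPM in phyB in LD and 12.0, 10.0 and 12.6 TPM in SD, against 0.376 to 2.1 TPM in elf3-1 elf3-2. A pair with adjacent identifiers, Os07g0178700 and Os07g0178800, was higher in phyB than in elf3-1 elf3-2 in both day lengths, with the higher levels in LD. Os07g0178800 had 56.6, 49.4 and 45.5 TPM in LD and 1.73, 1.96 and 2.73 TPM in SD in phyB, against 1.75 to 2.33 and 0.207 to 0.361 TPM in elf3-1 elf3-2. Whether counting split reads between neighbours such as these is not given in the sources used here. Os08g0113000 differed the other way, with 0.113 to 0.213 TPM in phyB, 8.43 to 13.4 TPM in elf3-1 elf3-2 and 3.53 to 8.34 TPM in WT in LD.

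The genes named by symbol showed smaller differences at ZT18. RCA was at 2823, 2921 and 2379 TPM in phyB in LD and 2684, 2552 and 2032 TPM in elf3-1 elf3-2, and its groups overlapped in both day lengths. SSI was lower in elf3-1 elf3-2 in LD (23.9, 32.0 and 27.5 TPM against 68.7, 63.5 and 63.6 TPM; log2 -1.20, SE 0.19, adjusted p = 3.1e-06). RINO1 was higher, with 100.6, 76.9 and 98.7 TPM against 46.0, 43.3 and 48.8 TPM in LD (log2 1.03, SE 0.16, adjusted p = 1.6e-06). PIP2-2 was higher as well, with 106, 106 and 119 TPM against 57.8, 59.2 and 57.1 TPM (log2 0.96, SE 0.15, adjusted p = 1.97e-06). For RINO1 and PIP2-2 the WT libraries in LD (86.9 to 95.6 and 120.5 to 148 TPM) also lay above phyB.

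**Figure D3:**
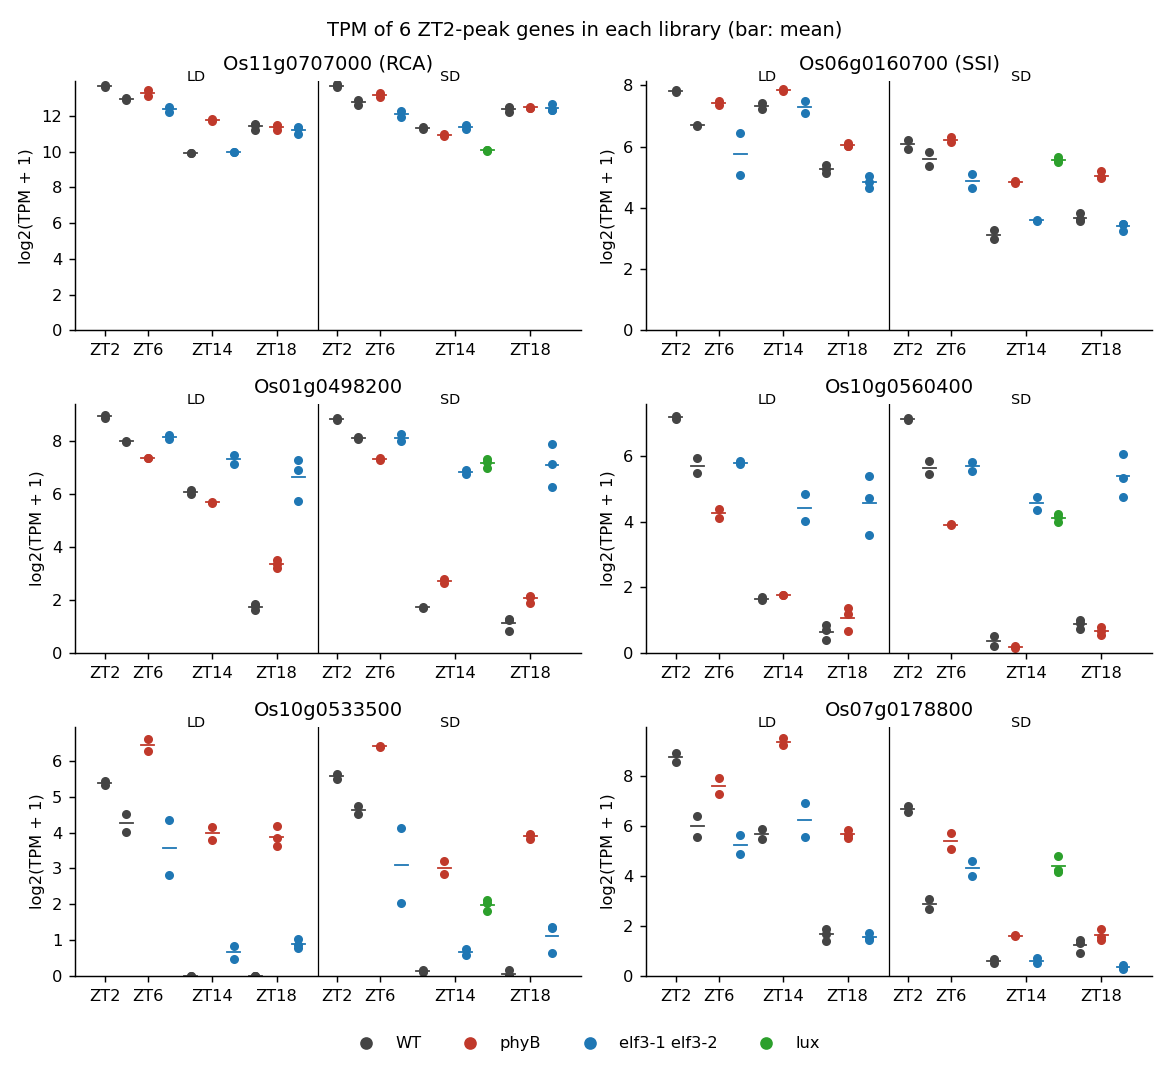
log2(TPM + 1) of 6 genes in each kept library at ZT2 (WT only), ZT6, ZT14 and ZT18, LD on the left and SD on the right of each panel, with the group mean as a bar. Os01g0498200 and Os10g0560400 are high at ZT18 in elf3-1 elf3-2, Os10g0533500 in phyB, and Os07g0178800 in phyB in LD.

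Against WT at ZT18, again as a description, elf3-1 elf3-2 had 42 members higher and 8 lower in LD, where 7.77% and 6.1% of all tested genes were called, and 36 higher and 13 lower in SD, where the shares were 5.79% and 3.6%. phyB had 58 higher and 31 lower in LD (14.5% and 15.1% of all tested genes) and 39 higher and 22 lower in SD (10.3% and 11.5%). Both mutants share the WT libraries. Os03g0228200 was higher in both: 26.4, 11.2 and 5.37 TPM in elf3-1 elf3-2 and 16.4, 19.1 and 15.8 TPM in phyB, against 0.182 to 0.461 TPM in WT in LD. For elf3-1 elf3-2 in SD, DESeq2 called 39 higher and 23 lower. With all 74 libraries the counts in the same order were 9 and 0, 11 and 0, 10 and 3, and 6 and 0.

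Whether the gap between the mutants at ZT18 depended on day length was tested as an interaction. It passed for 10 genes in each direction, where 1.8% of all tested genes passed with a larger elf3-1 elf3-2 over phyB difference in LD and 2.55% with a smaller one. Os12g0458100 changed sides: in LD it had 73.3, 83.0 and 74.5 TPM in elf3-1 elf3-2 against 25.5, 15.4 and 32.4 TPM in phyB, and in SD 21.7, 10.6 and 23.7 TPM against 71.4, 88.6 and 111 TPM. No libraries overlapped, and the interaction was 3.90 on the log2 scale (SE 0.51, adjusted p = 5.99e-06). Os08g0167800 had the largest value, 5.07 (SE 0.94, edgeR adjusted p = 0.000835), with 19.0, 133 and 56.9 TPM in elf3-1 elf3-2 in LD and 11.1, 1.61 and 4.08 TPM in SD. In phyB this gene went the other way, with a mean of 50.8 TPM in LD and 134 TPM in SD. The total was 12 without replicate 2 of elf3-1 elf3-2 at ZT18 in SD and 13 without its replicate 3 in LD. With all 74 libraries edgeR called 0 members, with 6 higher and 3 lower at an unadjusted p under 0.05.

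Many of the genes differed between day lengths at ZT14, which is lights-off in LD and 4 h into the dark in SD. In phyB the median over the 150 genes was 38.2 and 39.7 TPM in LD and 10.1 and 10.2 TPM in SD. In elf3-1 elf3-2 it was 18.1 and 27.2 TPM in LD and 13.6 and 13.7 TPM in SD, and in WT 13.9 and 15.3 TPM and 7.22 and 7.36 TPM. Among kept libraries those of phyB in LD thus stood above all others at this time, while the doubted libraries in LD were at 43.3 TPM (WT replicate 1) and 17.04 TPM (phyB replicate 1). In phyB 120 genes were higher in LD and 4 lower, where 16.3% of all tested genes were higher and 17.8% lower, and the median log2 difference was 1.76. In elf3-1 elf3-2 71 were higher in LD and 28 lower, where the shares were 19.5% and 20%, and the median was 0.56. Of the 71 genes higher in LD in elf3-1 elf3-2, 67 were also among the 120 in phyB, and 16 of the 28 lower ones were higher in LD in phyB. As 80% of the 150 genes were higher in LD in phyB, a large overlap was likely in any case. The share of all tested genes called in both mutants was not counted. Under all 74 libraries the counts were 73 and 3 in phyB and 8 and 1 in elf3-1 elf3-2.

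The difference between the mutants was tested directly, in a comparison chosen after these values had been seen. The LD over SD difference at ZT14 was larger in phyB for 87 genes and smaller for 0, where 6.7% and 4.82% of all tested genes passed in these directions. At an unadjusted p under 0.05, 1 member was smaller, and DESeq2 found 101 larger and 0 smaller. The median of this difference was 1.34 on the log2 scale. It passed for 75 to 91 genes when 1 library was left out, and for 0 in edgeR with all 74 libraries, where 34 were larger and 0 smaller at an unadjusted p under 0.05.

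RCA showed the contrast. It had 3610 and 3322 TPM at ZT14 in phyB in LD and 1889.8 and 2003 TPM in SD, but 1009 and 1013 TPM in elf3-1 elf3-2 in LD and 2506 and 2857 TPM in SD. LD over SD was 0.99 in phyB (SE 0.16, edgeR adjusted p = 5.06e-06) and -1.43 in elf3-1 elf3-2 (SE 0.16, adjusted p = 5.14e-09), and these differed by 2.42 (SE 0.23, adjusted p = 1.59e-09). In WT too LD was below SD, with 962 and 971 TPM in LD and 2482 and 2622 TPM in SD. ALDP had the same order, with 3414 and 3274 TPM in phyB in LD and 1245 and 1225 TPM in elf3-1 elf3-2, and a difference of 1.55 (SE 0.22, adjusted p = 2.79e-06). Os08g0139700, the third most abundant gene, had 1264 and 1136 TPM in phyB in LD against 92.5 and 95.5 TPM in WT and 424 and 265 TPM in elf3-1 elf3-2.

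SSI was high at ZT14 in LD in every genotype, with 227 and 238 TPM in phyB, 179.8 and 136 TPM in elf3-1 elf3-2 and 171 and 151 TPM in WT. In SD it had 28.4 and 27.1, 10.9 and 11.2, and 8.64 and 6.94 TPM. Its LD over SD difference was 3.23 in phyB (SE 0.24, adjusted p = 1.49e-13) and 3.81 in elf3-1 elf3-2 (SE 0.25, adjusted p = 1.09e-14), and the difference between these, -0.58 (SE 0.32), did not pass.

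Several genes with little signal at ZT14 in SD were high at ZT14 in LD in phyB. Os01g0823600 had 415 and 509.8 TPM in phyB in LD and 2.53 and 4.66 TPM in SD, with 305 and 246 TPM in LD in elf3-1 elf3-2 and 164 and 178 TPM in WT. Os07g0178800 had 730.05 and 613 TPM in phyB in LD and 2.05 and 2.11 TPM in SD, against 122 and 47.1 TPM and 0.64 and 0.439 TPM in elf3-1 elf3-2 and 44.2 and 59.0 TPM and 0.613 and 0.431 TPM in WT. Os07g0178700 had 305 and 242 TPM in phyB in LD and 6.89 and 8.96 TPM in WT. Os01g0246400 had 243 and 187 TPM in phyB in LD, 50.9 and 17.4 TPM in elf3-1 elf3-2 and 15.6 and 18.2 TPM in WT. For Os07g0178800, Os07g0178700 and Os01g0246400 the phyB values at ZT14 in LD exceeded WT at ZT6 in LD (83.5 and 47.1, 21.3 and 12.3, and 61.0 and 35.5 TPM), and for Os07g0178800 they also exceeded WT at ZT2 (381 and 492 TPM). The 4 genes that were lower in LD in phyB were Os12g0458100, Os12g0610200, Os02g0593500 and Os08g0446800, of which Os12g0458100 had 5.87 and 7.58 TPM in LD and 39.8 and 46.5 TPM in SD.

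**Figure D4:**
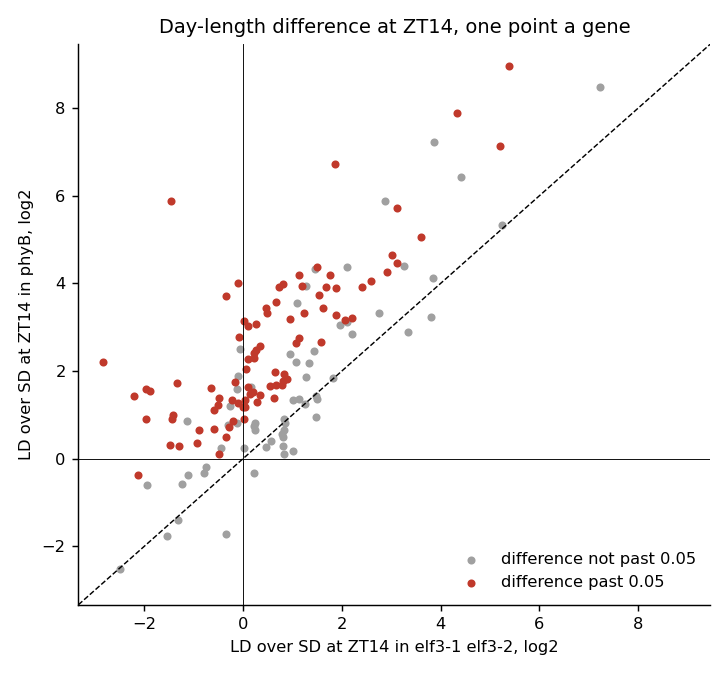
Fitted log2 difference of LD over SD at ZT14 for each of the 150 genes in elf3-1 elf3-2 (horizontal) and phyB (vertical), with the line of equal differences dashed. The 87 genes whose difference between the mutants passed the threshold (red) all lie above the line.

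At ZT18 the direction of the day-length difference was the opposite for most called genes. In phyB 66 genes were lower in LD and 17 higher, where 14.4% and 14.1% of all tested genes were called, with a median log2 of -0.34. In elf3-1 elf3-2 64 were lower and 24 higher, where the shares were 19.2% and 18.1%, with a median of -0.37. Of the 66 and 64 lower genes, 49 were shared, but the share of all tested genes lower in both mutants was not counted. By ZT18 the plants had been in the dark for 4 h in LD and 8 h in SD. RCA was lower in LD in both, with 2032 to 2684 TPM in LD and 5174 to 6549.6 TPM in SD in elf3-1 elf3-2 (log2 -1.37, SE 0.13, adjusted p = 2.61e-10), and a log2 of -1.20 in phyB (SE 0.13, adjusted p = 5.53e-09). SSI went against this, with 23.9 to 32.0 TPM in LD and 8.41 to 10.2 TPM in SD in elf3-1 elf3-2. Os09g0294000 was the gene with the largest fall among non-overlapping genes in both mutants, at 3.17 to 5.12 TPM in LD and 44.0 to 56.0 TPM in SD in elf3-1 elf3-2. The counts from all 74 libraries were 2 lower and 2 higher in phyB, and 8 and 4 in elf3-1 elf3-2.

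**Figure D5:**
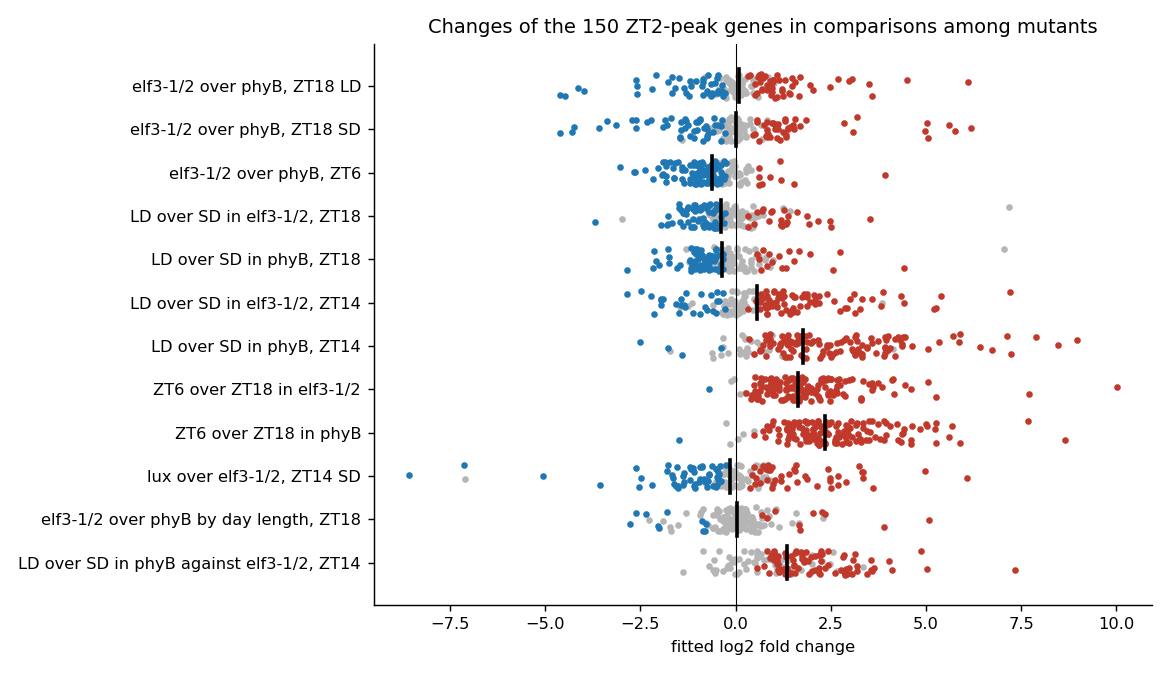
Fitted log2 fold changes of the 150 genes (points) in 12 comparisons that use mutant libraries only, with the median as a bar, red for genes called higher and blue for genes called lower at an adjusted p under 0.05. The points lie mostly right of 0 for ZT6 over ZT18 and for LD over SD at ZT14 in phyB, and mostly left of 0 for elf3-1 elf3-2 over phyB at ZT6.

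The lux mutant was sampled at ZT14 in SD alone, and its 3 libraries also differed in tissue markers. Of 3 listed root markers, the 2 found in RefSeq (PIP2-3 and NRT2.1) summed to 34.3 to 44.2 TPM in lux. In the other 54 kept libraries they summed to 0 to 4.29 TPM, with a median of 0.049 TPM. Over all 57 kept libraries PIP2-3 was at 0 TPM in 32 and NRT2.1 in 33. The meristem marker OSH1 was at 0 TPM in 53, while CDKB2-1, a marker of dividing cells, was at 0.140 to 42.3 TPM. The 3 leaf markers, of which RCA is one, summed to 2536 to 3094 TPM in lux and to 7437 to 8325 TPM in WT and elf3-1 elf3-2 at ZT14 in SD. Their part in the lux results was not tested. Beside these values, the median level of the 150 genes was 15.3 to 16.1 TPM in lux, 13.6 and 13.7 TPM in elf3-1 elf3-2 and 7.22 and 7.36 TPM in WT.

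Relative to elf3-1 elf3-2, 42 genes were higher in lux and 56 lower, while 34.9% of all tested genes were higher and 29.5% lower, so the count of members was near the background. Relative to WT, as a description, 75 were higher and 38 lower, where the shares were 36.8% and 30.5%. The counts from all 74 libraries were 16 and 21 against elf3-1 elf3-2, and 51 and 18 against WT. Genes with higher levels in elf3-1 elf3-2 than in WT at this time did not behave alike in lux. Os12g0458100 had 37.4 and 62.5 TPM in elf3-1 elf3-2 and 3.32 and 6.78 TPM in WT, but 0, 0.120 and 0.285 TPM in lux. Os08g0167800 was likewise low in lux, with 0.141 to 0.639 TPM against 17.2 and 57.7 TPM in elf3-1 elf3-2 and 2.16 and 13.3 TPM in WT. Others were above WT in both mutants. Os01g0498200 had 126, 148 and 159 TPM in lux and 119 and 108 TPM in elf3-1 elf3-2, against 2.34 and 2.31 TPM in WT. The difference between the mutants for this gene, 0.14 (SE 0.26), did not pass. Os03g0387900 had 142, 141 and 128 TPM in lux, 95.9 and 68.2 TPM in elf3-1 elf3-2 and 1.44 and 2.23 TPM in WT. Os05g0582000 had 15.9, 16.9 and 17.1 TPM in lux and 0.0695 and 0.304 TPM in elf3-1 elf3-2, so that lux stood apart for that gene (edgeR adjusted p = 1.68e-08). RCA, at 1112, 1044 and 1079 TPM, was below both WT and elf3-1 elf3-2 (log2 against elf3-1 elf3-2 -1.52, SE 0.15, adjusted p = 1.17e-11).

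The genes were not uniform in these responses, and their shape in WT allowed them to be sorted. In both day lengths 55 genes had their second-highest level at ZT24 and 58 at ZT6, with 37 in neither class. At ZT6, 46 of the 55 were lower in elf3-1 elf3-2 than in phyB and 2 higher, and 30 of the 58 were lower and 6 higher. Over all tested genes, 17.5% were lower and 18.7% higher. At ZT18 in LD, 13 of the 55 were higher and 19 lower in elf3-1 elf3-2 than in phyB. Of the 58, 27 were higher and 11 lower, where 17.5% of all tested genes were higher and 17.7% lower. LD over SD at ZT14 in phyB had a median log2 of 1.25 in the 55 and 2.63 in the 58. Differences between the classes were not tested.

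The genes were spread over all 12 chromosomes, from 5 on chromosome 6 (3.33% of members, against 8.34% of all genes) to 27 on chromosome 3 (18% against 12.0%). Members lay within 3 places of another member in the order of the table in 10 pairs, made up of 19 genes, and 4 of these pairs were adjacent. These 19 are 12.7% of members, against 19.5% of the 713 genes before the limit. RCA and Os11g0707100 formed such a pair, with 1 gene between them. Os11g0707100 had 81.3 and 73.2 TPM at ZT2 in LD, and at ZT14 it was higher in LD in phyB (log2 2.19, SE 0.68, adjusted p = 0.0101) and lower in LD in elf3-1 elf3-2 (log2 -2.84, SE 0.81, adjusted p = 0.00473), as RCA was. Reads shared between such neighbours cannot be told apart here. None of the 6 clock genes, 8 chlorophyll synthesis genes or 3 photoreceptor genes whose listed symbols were matched in RefSeq was among the 150. Of these, 1 chlorophyll synthesis gene was highest at ZT2, in 1 of the day lengths only. The lists held 10, 14 and 6 genes, and those without a match were not checked. As only 150 of 37849 genes were chosen, lists this short could easily hold none, and nothing is read from this.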

How the data were processed

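The authors deposited a table of raw gene counts and a table of TPM for the same libraries, which the file headers name by genotype, time, day length and replicate. Per the submitters' processing notes, HISAT2, StringTie and the IRGSP-1.0 genome were used, with versions not given in the sources used here. TPM, as deposited by the authors, chose the genes and gave the levels. The authors' counts gave the tests. The time that the tables call ZT00 is ZT24 in the labels. Of the columns of either table, 1 matched no labelled sample and was not used.

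The 57 kept libraries were fitted together, with a mean for each of 25 groups, in edgeR 4.0.16 (R 4.3.3), with TMM scaling, the filterByExpr filter (28905 of 37849 genes tested, with all 150 members among them) and robust quasi-likelihood tests. P-values were adjusted by Benjamini-Hochberg over all tested genes, and a call is an adjusted p under 0.05. Fold changes are fitted log2 values, and their standard error was derived from the test statistic. "Overlap" refers to the TPM of single libraries. Alternatives were DESeq2 1.42.0, RLE scaling, no filter, a replicate block, all 74 libraries, and leaving out each library.

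The members and lists were chosen with earlier results of these data known. Named genes were the 12 with the largest score, the 5 most abundant, those at the limit, the 5 with a symbol, and in each comparison up to 5 in each direction by size of change among non-overlapping groups with at least 5 TPM in one group (3 in each direction against WT). Neighbours, extremes of day length at ZT2 and exceptions to a common direction were chosen after their values were seen. The identifiers of the files had no match in the RefSeq gene table (assembly ASM3414082v1), and no sequence is printed.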

Additional observations from a re-analysis of the deposited data

Results flagged for a closer look

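The gap between elf3-1 elf3-2 and phyB at ZT18 differed between day lengths for 20 genes, by the test of the interaction itself (edgeR quasi-likelihood, adjusted over all genes). Values here are LD minus SD of the log2 difference of elf3-1 elf3-2 over phyB. They were highest for Os08g0167800 (5.07), Os12g0458100 (3.90), Os01g0793300 (2.34), Os05g0102000 (2.04) and Os07g0463600 (1.71). They were lowest for Os01g0246400 (-2.78), Os03g0387900 (-2.34), Os01g0498200 (-2.04), Os07g0685000 (-2.01) and Os03g0228200 (-1.81).

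The LD over SD difference at ZT14 differed between phyB and elf3-1 elf3-2 for 87 genes, again by the test of the difference. Values here are phyB minus elf3-1 elf3-2 on the log2 scale. The largest among the named genes were Os03g0782200 (7.35), Os11g0707100 (5.03), Os03g0228200 (4.86), Os10g0560400 (4.11) and Os01g0175700 (4.04). Some of these rest on levels near 0: Os03g0782200 had 0.987 and 0.250 TPM in LD and 0.0651 and 2.96 TPM in SD in elf3-1 elf3-2, and Os10g0560400 had 0.169 and 0.130 TPM in SD in phyB.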

How the results depend on the processing

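Counts of called genes depended most on the doubted libraries. With all 74 libraries under their labels, elf3-1 elf3-2 against phyB gave 21 (ZT18 LD), 22 (ZT18 SD) and 5 (ZT6) called genes. LD against SD gave 12 (elf3-1 elf3-2, ZT18), 4 (phyB, ZT18), 9 (elf3-1 elf3-2, ZT14) and 76 (phyB, ZT14). Against WT the counts were 9 and 11 (elf3-1 elf3-2, ZT18 LD and SD), 13 and 6 (phyB, ZT18 LD and SD) and 0 and 0 (ZT6). lux gave 37 against elf3-1 elf3-2 and 69 against WT. LD against SD in WT at ZT2 gave 0, and both interactions gave 0. ZT6 against ZT18 stayed within 1.5 times. The fitted value changed sign for Os07g0178800 in lux over elf3-1 elf3-2 (-0.20) and for Os10g0560400 in the ZT14 interaction (-1.10). The cause was not tested. Of 136 values of named genes, 56 lost their call with all 74 libraries, 1 without the filter and none under DESeq2, RLE scaling, the replicate block or another dispersion estimate (added after seeing the data). Leaving out single libraries lost 38 of 900 calls.

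Leaving out each library in turn gave 79 to 85, 79 to 90 and 103 to 121 called genes for elf3-1 elf3-2 against phyB at ZT18 LD, ZT18 SD and ZT6. LD against SD gave 75 to 84 and 74 to 80 at ZT18, and 75 to 92 and 117 to 120 at ZT14 (elf3-1 elf3-2, then phyB). ZT6 against ZT18 gave 137 to 146 and 143 to 145. Against WT the ranges were 39 to 45, 42 to 52, 77 to 81 and 50 to 57 at ZT18, and 76 to 117 and 71 to 78 at ZT6. lux gave 77 to 91 and 95 to 112, WT at ZT2 31 to 41, and the interactions 12 to 22 (ZT18) and 75 to 91 (ZT14). The rule kept 141 to 150 of its genes. It kept 99 with ZT24 left out, 118 with all 36 WT libraries, and 128 to 147 under the other settings.

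Replicate numbers did not meet the criterion for pairing, a correlation over 0.1 in every pair: at ZT18, libraries with the same number correlated at -0.247 to 0.556 (median 0.213, 45 pairs) and others at -0.400 to 0.265 (median -0.0664, 90 pairs), so same-numbered libraries were more alike on the median but not in every pair. With the replicate block the count was 92 (ZT18 LD), 94 (ZT18 SD) and 118 (ZT6) for elf3-1 elf3-2 against phyB, 27 and 94 for the interactions at ZT18 and ZT14, and within 1.5 times of the unblocked count in every other comparison. Most groups held 2 libraries, which limits the precision of their values.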
